A study of Drosophila melanogaster with 288 samples.

Results

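The body wall muscles of the fly embryo are built from 2 kinds of myoblast. Founder cells carry the identity of each muscle, and fusion-competent myoblasts recognise a founder through receptors of the immunoglobulin superfamily, attach to it and fuse, so that a syncytial fibre forms. The 10 genes described here act along this path, and were taken as a named list: the transcription factors Mef2, nau and lmd, the Mef2 inhibitor Him, the receptors kirre, rst and sns, and the intracellular fusion components mbc, blow and rols. All 10 were found by gene identifier among the 17698 genes of the count table, and 9 were among the 9606 protein-coding genes tested, since the mean of nau stayed below 1 cpm, the depth-scaled count, taken here over the counts on protein-coding genes.

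Expression was measured in single whole embryos of untreated w1118 flies by BRB-seq, a barcoded 3′ RNA sequencing method that counts reads near the end of polyadenylated transcripts. The 288 samples fell into 8 groups by age after egg laying, E1 at 2-3 h, E2 at 5-6 h, E3 at 8-9 h, E4 at 11-12 h, E5 at 14-15 h, E6 at 17-18 h, E7 at 20-21 h and E8 at 23-24 h. After quality control and removal of a small cluster of 97 samples, 153 embryos were used, namely 27 at E3, 24 at each of E2 and E7, 21 at E5, 18 at E6, 14 at each of E4 and E8 and 11 at E1. Their depth ranged from 377740 to 24787342 counts, with a median of 6072822. Each sample was 1 embryo, and the labels do not give its mother or cage, so p-values measure the spread between these embryos. The embryos were spread over 4 sequencing libraries, which the labels name E1_1, E1_2, E2 and E3. These library names are not stages, and samples were assigned to plates by their RNA concentration.

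The stage labels were set against the expression profiles before the members were examined. With the 10 members left out, 129 of the 153 embryos were nearest by rank correlation to the mean profile of their own labelled stage. The other 24 were nearest to another stage. These were 3 embryos at E1, 2 at E2 (both nearest to E5), 2 at E3, 6 at E5 (all nearest to E6), 6 at E7, 4 at E8 and 1 at E6. Of the 6 at E7, 4 were nearest to E1. No E4 embryo was among them. Where a call that is named here was lost or gained without these 24 embryos, its value in the other 129 is given beside it. 1 E7 embryo carried conflicting ages in its labels. It was kept by its title, and leaving it out changed no call of a member.

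The members lie on several chromosome arms (BDGP6 assembly, gene bounds of Ensembl release 115). Mef2 (FBgn0011656) is at 2R:9913496-9958858 on the minus strand, sns (FBgn0024189) at 2R:8798489-8856091 on the plus strand and blow (FBgn0004133) at 2R:7580488-7587079 on the minus strand. lmd (FBgn0039039) is at 3R:23021222-23026713 and nau (FBgn0002922) at 3R:23712814-23718357, both on the minus strand, and mbc (FBgn0015513) is at 3R:23781765-23801634 on the plus strand. rols (FBgn0041096) is at 3L:12008225-12064859 on the minus strand. Him (FBgn0030900) is at X:18209427-18210741 on the plus strand. kirre (FBgn0028369), at X:2740384-3134532 on the plus strand, spans 394149 bases, and its paralog rst (FBgn0003285) lies inside that span at X:2950399-2973834 on the minus strand. The exons of kirre and rst share 0 bases. Exons of blow share 188 bases with Vps13 and exons of nau share 405 bases with CG10300, each on the opposite strand. Whether the counting used the strand is not given in the sources used here, so reads in those stretches cannot be assigned with certainty.

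Most of the members were highest around E3. In the step from E2 to E3, 6 of the 9 members tested rose, namely Mef2, kirre, rst, sns, blow and rols, and none fell. In the same step 11.3% of all genes tested were called higher and 17.2% lower. A gene was called when the Benjamini-Hochberg adjusted p of edgeR's quasi-likelihood test was below 0.05 and its log2 fold change exceeded 1 in size. The median log2 fold change of the members was 1.48 and that of all genes tested was -0.21. This overall shift depends on the scaling. With library size alone the median over all genes was 0.23, with 1986 genes higher and 925 lower in place of 1085 and 1652, and 6 members were called higher under both scalings. The same number of members was called with DESeq2 size factors, with the DESeq2 Wald test and in the 129 embryos nearest their own stage, where 15% of genes were called higher. Because whole embryos were measured, a lower level cannot be told apart as fewer cells of a type or less RNA per cell.

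**Figure D1:**
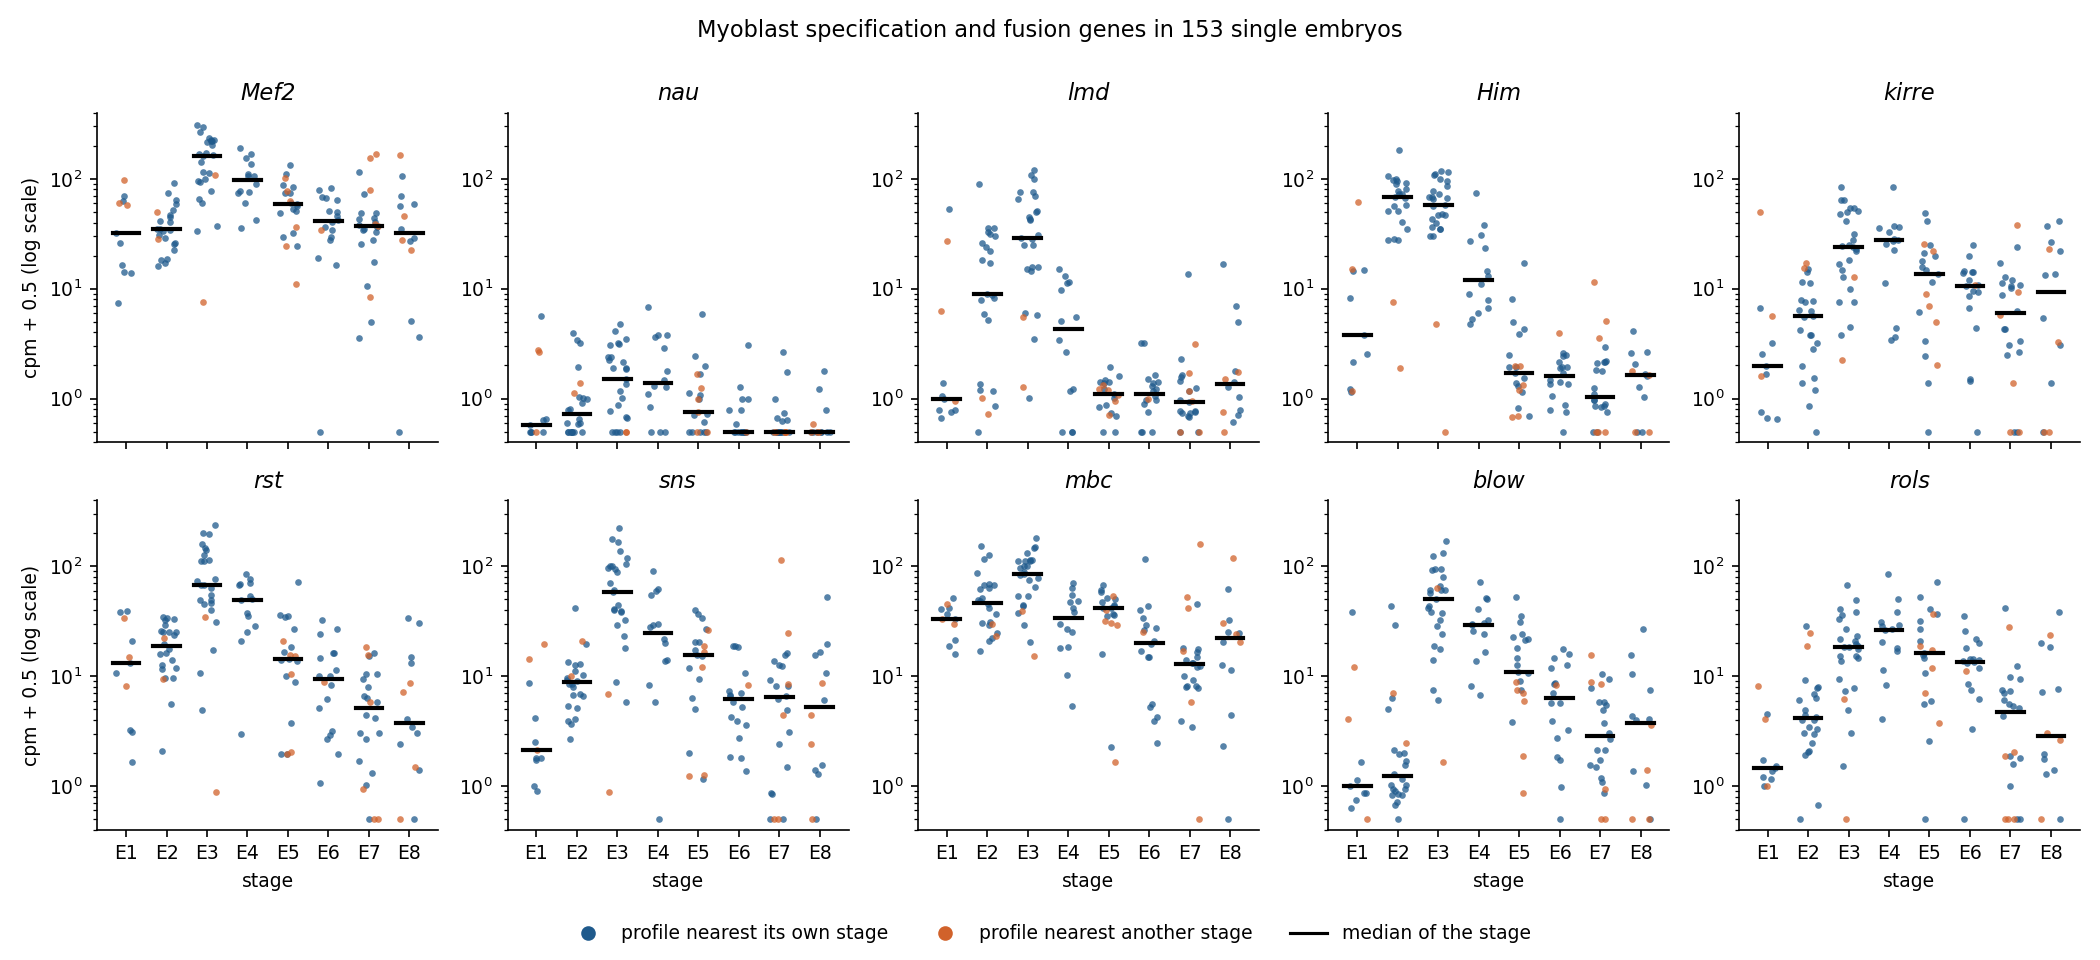
Level of the 10 members in each of the 153 embryos, as cpm plus 0.5 on a log axis, by stage (E1 at 2-3 h to E8 at 23-24 h). Points are embryos, coloured by whether their profile was nearest its own stage (129) or another stage (24), and bars are stage medians. The medians of Mef2, lmd, rst, sns, mbc and blow are highest at E3, that of Him is highest at E2, and that of nau does not exceed 1 cpm.

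Among the transcription factors, Mef2 is a MADS-box activator of muscle differentiation genes that is used in all muscle lineages. Its level was 15.4 to 90.9 cpm at E2 (median 34.2, n = 24) and 7.03 to 307 cpm at E3 (median 161, n = 27). At E3, 21 of the 27 embryos lay above every E2 embryo and 1 lay below all of them. That lowest embryo was one of the pair nearest to another stage, without which the lowest E3 level was 33.1 cpm. The same embryo held the lowest E3 level of Him, kirre, rst, sns, mbc, blow and rols. The rise of Mef2 was 1.48 ± 0.29 (log2 fold change ± SE, edgeR adjusted p = 1.47e-05). Within the 4 libraries the difference of its mean log2 level ran from 0.83 to 2.61. The median then stood at 97.2 cpm at E4 and 58.3 cpm at E5, and from E6 onward it lay between 31.5 cpm (E8) and 41.0 cpm (E6). None of these later steps passed the test, the largest being -0.61 ± 0.33 on the log2 scale from E3 to E4 (edgeR adjusted p = 0.175). Mef2 was already present at E1, at 6.94 to 96.1 cpm (median 31.6, n = 11), and its log2 change from E1 to E2 was -0.12 ± 0.36 (edgeR adjusted p = 0.917).

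The zinc finger factor lmd, of the Gli family, is required for the fusion-competent fate. Its level ran from 0 to 88.8 cpm at E2 (median 8.37) and from 0.51 to 119 cpm at E3 (median 28.4). It ran from 0 to 14.5 cpm at E4 (median 3.77, n = 14) and from 0 to 1.44 cpm at E5 (median 0.60, n = 21). All 14 E4 embryos lay below the E3 median, and all 21 E5 embryos lay below the E4 median. The gene fell by 2.81 ± 0.63 on the log2 scale from E3 to E4 (edgeR adjusted p = 0.000219) and by 2.92 ± 0.61 from E4 to E5 (edgeR adjusted p = 4.07e-05), in 4 of 4 libraries at both steps. The difference between E2 and E3 did not pass the test (log2 0.41 ± 0.47, edgeR adjusted p = 0.512), and within libraries it ran from -2.34 to 2.61. Levels at E2 were widely spread, with 11 of the 24 embryos above 10 cpm and 1 embryo at 0. From E1, where the median was 0.48 cpm, to E2 the log2 change was 1.41 ± 0.65 (edgeR adjusted p = 0.192). In the embryos nearest their own stage the same step was 2.91 ± 0.79 and passed (edgeR adjusted p = 0.004). 1 E1 embryo that was nearest its own stage held 53.0 cpm of lmd and 37.7 cpm of blow, the highest E1 level of both genes. It was singled out after its values were seen.

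nau, the fly member of the MyoD family, acts in a subset of founder cells and stayed close to the detection limit. Its median was 1.00 cpm at E3 (range 0 to 4.29) and 0.89 cpm at E4 (range 0 to 6.36), and no stage had an embryo above 10 cpm. It was listed at 0 in 6 of 27 embryos at E3, 3 of 14 at E4 and 17 of 24 at E7. In an edgeR fit without the filter on low genes, none of its 7 steps passed the test, nor any at an unadjusted p of 0.05, the closest being E4 to E5 (log2 -1.27 ± 0.70, edgeR adjusted p = 0.175, 13291 genes tested).

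Him, a nuclear protein that inhibits Mef2 activity in muscle progenitors, had its highest median at E2. Its level was 0.64 to 60.7 cpm at E1 (median 3.26) and 1.38 to 184 cpm at E2 (median 67.3). Of these, 13 of the 24 E2 embryos lay above every E1 embryo, and the E1 maximum came from 1 of the 3 E1 embryos nearest to another stage, and without these 3 the E1 levels ended at 14.3 cpm. The rise from E1 to E2 was 2.61 ± 0.53 on the log2 scale (edgeR adjusted p = 0.000168), higher in 3 of 3 libraries, and Him was the only 1 of the 9 members called higher in this step, against 1.27% of all genes. No member was called lower there, against 5.76% of all genes, and 3 of the 9 had an unadjusted p below 0.05. The share of all genes at that unadjusted p is not given here. In the embryos nearest their own stage lmd, sns and rols were called higher from E1 to E2 as well, against 4.91% of all genes. At E3 the Him median was 57.3 cpm (range 0 to 118), and the step from E2 did not pass (log2 -0.22 ± 0.36, edgeR adjusted p = 0.667). The median was 11.6 cpm at E4 (range 4.26 to 74.3) and 1.21 cpm at E5 (range 0.18 to 16.6), where 18 of 21 embryos lay below every E4 embryo. Him fell by 2.02 ± 0.46 from E3 to E4 (edgeR adjusted p = 0.000288) and by 2.58 ± 0.45 from E4 to E5 (edgeR adjusted p = 9.54e-07), in 4 of 4 libraries each time.

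The related receptors kirre and rst rose from E2 to E3, in the same step as Mef2. kirre encodes the receptor of founder cells, and its level was 0 to 16.5 cpm at E2 (median 5.08), 1.76 to 83.7 cpm at E3 (median 23.6) and 2.90 to 84.3 cpm at E4 (median 27.0). Of the E3 embryos, 17 of 27 exceeded every E2 embryo, while the ranges of E3 and E4 overlapped almost fully. It rose by 1.65 ± 0.43 on the log2 scale from E2 to E3 (edgeR adjusted p = 0.00101), with differences of 1.08 to 3.38 within libraries, and the E3 to E4 difference was -0.16 ± 0.47 (edgeR adjusted p = 0.847). No later step of kirre passed, and its median at E8 was 8.81 cpm (range 0 to 40.9).

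rst is a related receptor that can stand in for kirre in founder cells. Its level was 1.60 to 34.2 cpm at E2 (median 18.2), 0.39 to 240 cpm at E3 (median 67.4), 2.45 to 85.3 cpm at E4 (median 49.2) and 1.44 to 71.7 cpm at E5 (median 13.9). At E3, 22 of 27 embryos exceeded all E2 embryos, and 20 of 21 E5 embryos lay below the E4 median. The rise from E2 to E3 was 1.48 ± 0.37 (edgeR adjusted p = 0.00081), present in 3 of 4 libraries, the other having a difference of -0.27. It fell by 1.21 ± 0.44 from E4 to E5 (edgeR adjusted p = 0.0239) and in 4 of 4 libraries, with log2 differences of -2.53 to -1.56. This call was lost without library E1_1 (log2 -1.16, edgeR adjusted p = 0.157) and in the embryos nearest their own stage (log2 -1.09, edgeR adjusted p = 0.0571).

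On the side of the fusion-competent cells, sns is the receptor that binds kirre and rst, and it is also known from nephrocytes. Its level was 2.20 to 40.9 cpm at E2 (median 8.30), 0.39 to 222 cpm at E3 (median 57.9) and 0 to 89.7 cpm at E4 (median 24.5). At E3, 15 of the 27 E3 embryos lay above all E2 embryos, and 1 lay below them. The gene rose by 2.30 ± 0.46 on the log2 scale (edgeR adjusted p = 2.04e-05), with 0.97 to 3.35 within the 4 libraries. From E3 to E4 the change was -1.26 ± 0.52 (edgeR adjusted p = 0.0663), lower in 4 of 4 libraries, and in the embryos nearest their own stage it was called (-1.31 ± 0.44, edgeR adjusted p = 0.0151). From E1 to E2 all 24 E2 embryos lay above the E1 median of 1.65 cpm. That step was 1.08 ± 0.59 in all embryos (edgeR adjusted p = 0.305) and 2.08 ± 0.61 in those nearest their own stage (edgeR adjusted p = 0.00957).

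blow had the largest change of any member in any step. It encodes a cytoplasmic protein with a pleckstrin homology domain that acts at the actin focus of the fusion-competent cell. Its level was 0 to 43.5 cpm at E2 (median 0.73) and 1.17 to 170 cpm at E3 (median 50.0), and 27 of 27 E3 embryos lay above the E2 median. At E3, 14 of them lay above every E2 embryo. It rose by 3.47 ± 0.49 on the log2 scale (edgeR adjusted p = 3.5e-09), with 1.08 to 4.89 within libraries. Its median after E3 was 29.1 cpm at E4, 10.4 cpm at E5 and 2.36 cpm at E7. None of these single steps passed the test.

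mbc encodes a DOCK family activator of the GTPase Rac and also acts in epithelia. It was present in every E1 embryo at 15.6 to 51.0 cpm (median 33.0). Its level was 16.6 to 152 cpm at E2 (median 46.4), 14.8 to 182 cpm at E3 (median 84.6) and 4.90 to 70.1 cpm at E4 (median 33.7). The E2 and E3 ranges almost coincided, and all 14 E4 embryos lay below the E3 median. The step from E2 to E3 did not pass (log2 0.20 ± 0.33, edgeR adjusted p = 0.664). It fell by 1.34 ± 0.40 from E3 to E4 (edgeR adjusted p = 0.00794), lower in 3 of 4 libraries, and this call was lost without library E1_1 (log2 -1.32, edgeR adjusted p = 0.0912) and without library E2 (log2 -1.17, edgeR adjusted p = 0.0876).

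rols, a scaffold protein that couples kirre to the cytoskeleton inside founder cells, was highest at E4. Its level was 0 to 28.1 cpm at E2 (median 3.63), 0 to 67.2 cpm at E3 (median 17.9), 3.55 to 84.5 cpm at E4 (median 26.1) and 0 to 72.3 cpm at E5 (median 15.8). The ranges overlapped in every step, and the 2 E2 embryos nearest to E5 were among the highest of E2, at 18.3 and 24.2 cpm. The rise from E2 to E3 was 1.29 ± 0.44 (edgeR adjusted p = 0.0134), higher in 4 of 4 libraries. It did not pass without library E1_1 (log2 0.95, edgeR adjusted p = 0.222). From E1, where the median was 0.97 cpm and the range 0.50 to 7.72 cpm, to E2 the change was 1.75 ± 0.61 (edgeR adjusted p = 0.0547). It was called in the embryos nearest their own stage (1.86 ± 0.65, edgeR adjusted p = 0.0367).

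**Figure D2:**
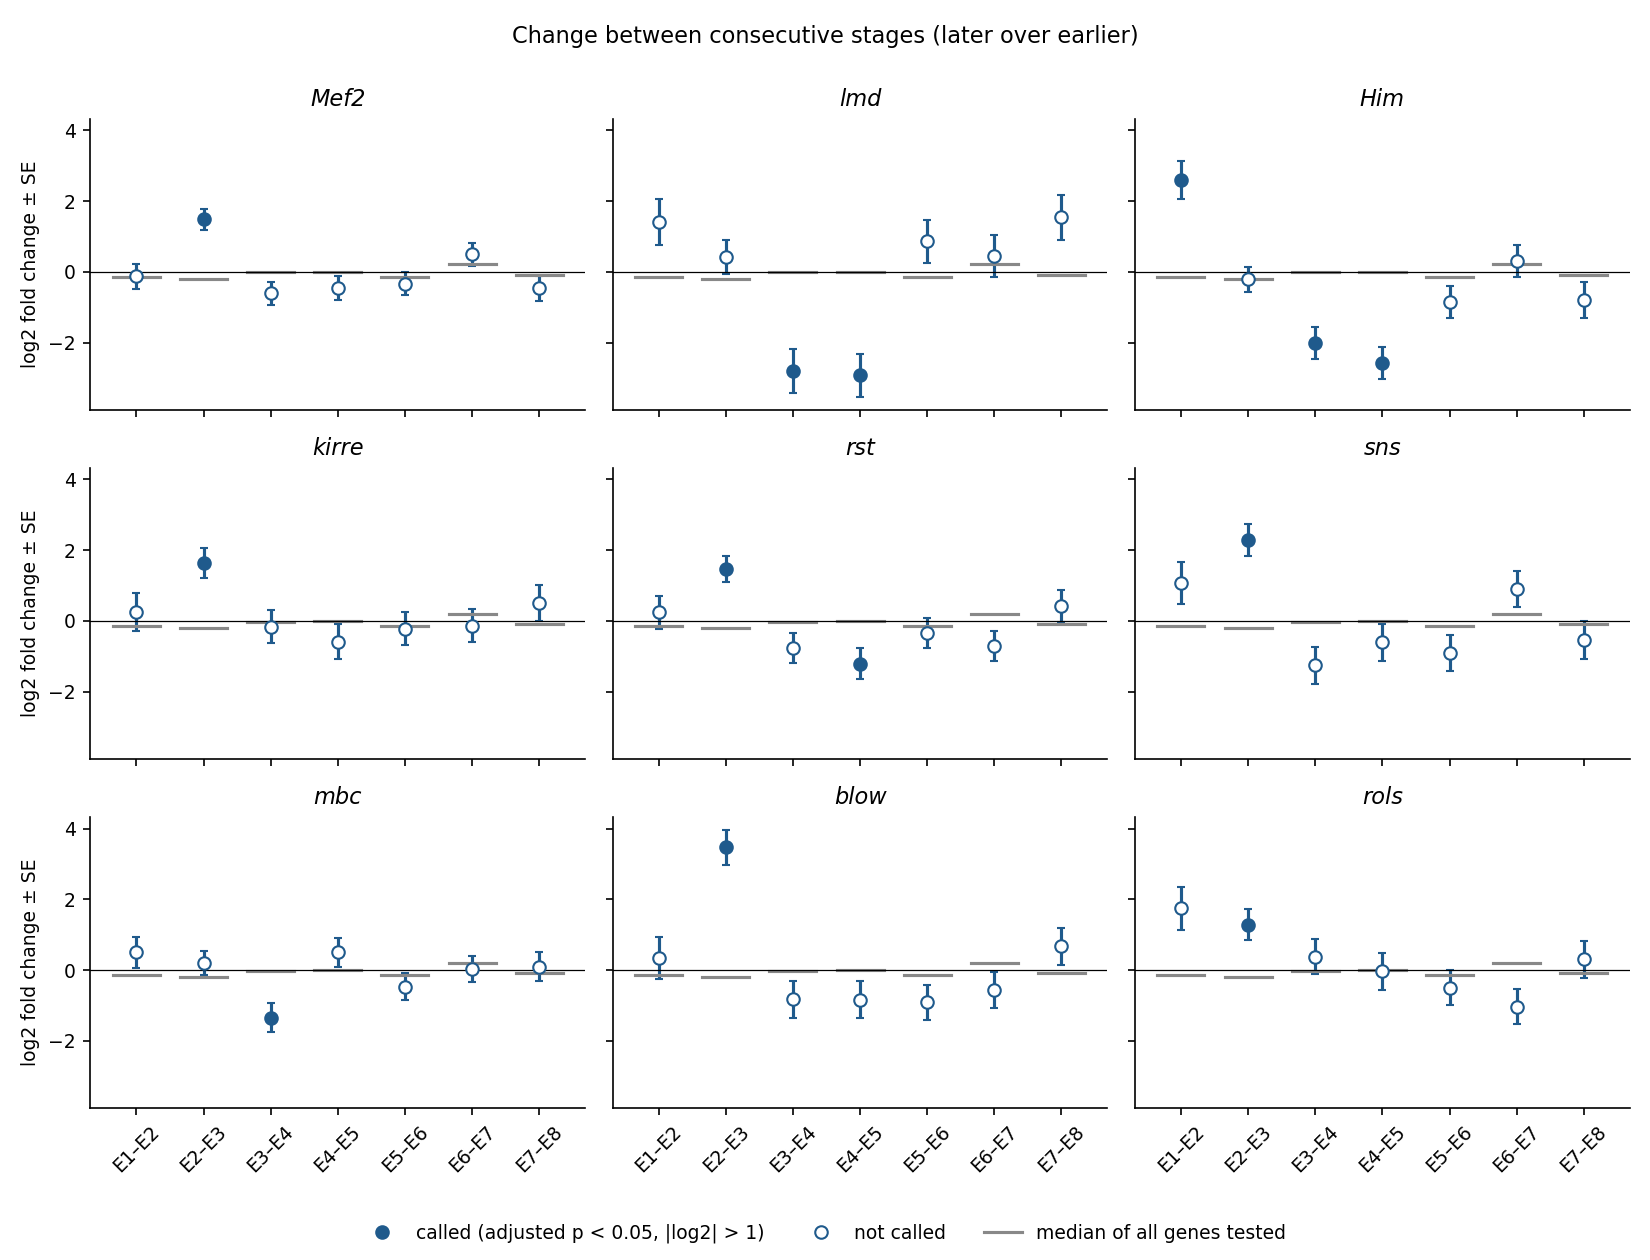
Log2 fold change ± SE of 9 members between consecutive stages, later over earlier, from the edgeR fit. Filled points were called, open points were not, and grey bars give the median of the 9606 genes tested. From E2 to E3, 6 members are filled above 0, and from E3 to E5 the filled points of lmd, Him, mbc and rst lie below 0.

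By step, 3 of the 9 members fell from E3 to E4 (lmd, Him and mbc), against 6.85% of all genes, and none was called higher, against 15.2% of all genes. From E4 to E5, 3 members fell (lmd, Him and rst), against 7.9% of genes, and none was called higher, against 20.5%. In these steps 4 and 3 of the members had an unadjusted p below 0.05, and the DESeq2 Wald test also called none higher. The share of all genes at that unadjusted p is not given here, so these counts have no background beside them. The median log2 fold change was -0.83 for the members and -0.02 for all genes from E3 to E4, and -0.60 and 0.00 from E4 to E5. After E5 no step of a member was called in the set of all 153 embryos. The median of every member tested was lower at E7 than at E5. For blow these medians were 2.36 and 10.4 cpm, and for rst 4.62 and 13.9 cpm. The mean of lmd was higher at E7, at 1.12 against 0.61 cpm. A direct log2 contrast of E5 over E7 is given for members with these stages adjacent in mean level. It was -0.16 for Mef2 (edgeR adjusted p = 0.755), 0.01 for sns (edgeR adjusted p = 0.989) and 0.54 for Him (edgeR adjusted p = 0.359). The lower medians are thus a description and not a called fall. Libraries E1_1 and E1_2 held 0 embryos at E8, and library E3 held 1 at E6. No member was called by edgeR or by DESeq2 from E5 to E6, where 1.7% of genes were called higher and 2.81% lower, from E6 to E7, with 12.4% higher and 5.22% lower, or from E7 to E8, with 1.29% higher and 1.57% lower. At an unadjusted p of 0.05, edgeR found 0, 1 and 1 members in these steps, again without a share of all genes. In the embryos nearest their own stage 4 members were called higher from E1 to E2 (Him, sns, lmd and rols) against 4.91% of all genes. In that set Him was lower from E5 to E6 (log2 -1.20, edgeR adjusted p = 0.0138) and lmd was higher from E7 to E8 (log2 2.17, edgeR adjusted p = 0.0339), and lmd medians in that set were 0.35 cpm at E7 and 0.84 cpm at E8.

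The order of the stages was read from the mean levels. The highest stage was E3 for Mef2, lmd, kirre, rst, sns, mbc and blow, E4 for rols and nau, and E2 for Him. For none of the 9 members tested was the highest stage called above the next highest by edgeR or DESeq2. Of all genes tested, edgeR called 22.1% in either direction between E3 and E4, 28.5% between E2 and E3 and 28.4% between E4 and E5. At an unadjusted p of 0.05, for which the share of all genes is not given, the highest stage of 1 of the 9 members, sns, stood above the next. Its E3 mean of 71.2 ± 57.3 cpm (SD, n = 27) stood against 30.8 ± 25.9 cpm at E4 (SD, n = 14). In the 129 embryos nearest their own stage sns was the 1 member whose highest stage was called. There 6.67% of all genes were called lower from E3 to E4. Among all neighbours in the 9 orders, 2 differed, E3 over E4 (edgeR adjusted p = 0.000288) and E1 over E5 (edgeR adjusted p = 3.49e-05), both for Him. The other neighbours did not differ beyond their spread.

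Ratios of 2 members within an embryo do not depend on the depth scaling apart from the pseudocount of 0.5 cpm, and stages were compared by permuting embryos between them (permutation test, two-sided), with adjustment over 21 tests. The ratio of Him to Mef2, the inhibitor to the activator, had a median log2 value of -2.67 at E1, which was 0.93 at E2, -1.40 at E3 and then -3.44 and -5.27 at the 2 stages that follow. It exceeded 0 in 17 of 24 embryos at E2, in 4 of 27 at E3 and in none of 21 at E5. The mean log2 ratio rose by 3.17 from E1 to E2 (permutation adjusted p = 0.00042). It then fell by 1.94 from E2 to E3 (permutation adjusted p = 0.00042), by 1.33 from E3 to E4 (permutation adjusted p = 0.0354) and by 2.04 from E4 to E5 (permutation adjusted p = 0.00805). Each of these steps had the same sign in every library with at least 2 embryos at both stages, 3 of 3 for the first and 4 of 4 for the others. The E3 to E4 step was -1.29 with a pseudocount of 0.1 cpm (permutation adjusted p = 0.0722) and -1.56 in the embryos nearest their own stage (permutation adjusted p = 0.00616).

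The ratio of sns to kirre, the receptor of the fusion-competent cell to that of the founder, had a median log2 value of 0.66 at E2, 1.24 at E3 and 0.03 at E4. It exceeded 0 in 22 of 27 embryos at E3 and in 7 of 14 at E4. The change of the mean from E3 to E4 was -1.10 (permutation adjusted p = 0.0634), lower in 4 of 4 libraries, and -1.27 in the embryos nearest their own stage (permutation adjusted p = 0.0197). The ratio of kirre to rst had a mean log2 value of -2.14 at E1, -1.39 at E3, -0.32 at E5 and 0.40 at E8. None of its 7 steps passed, the lowest permutation adjusted p being 0.548 from E2 to E3.

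**Figure D3:**
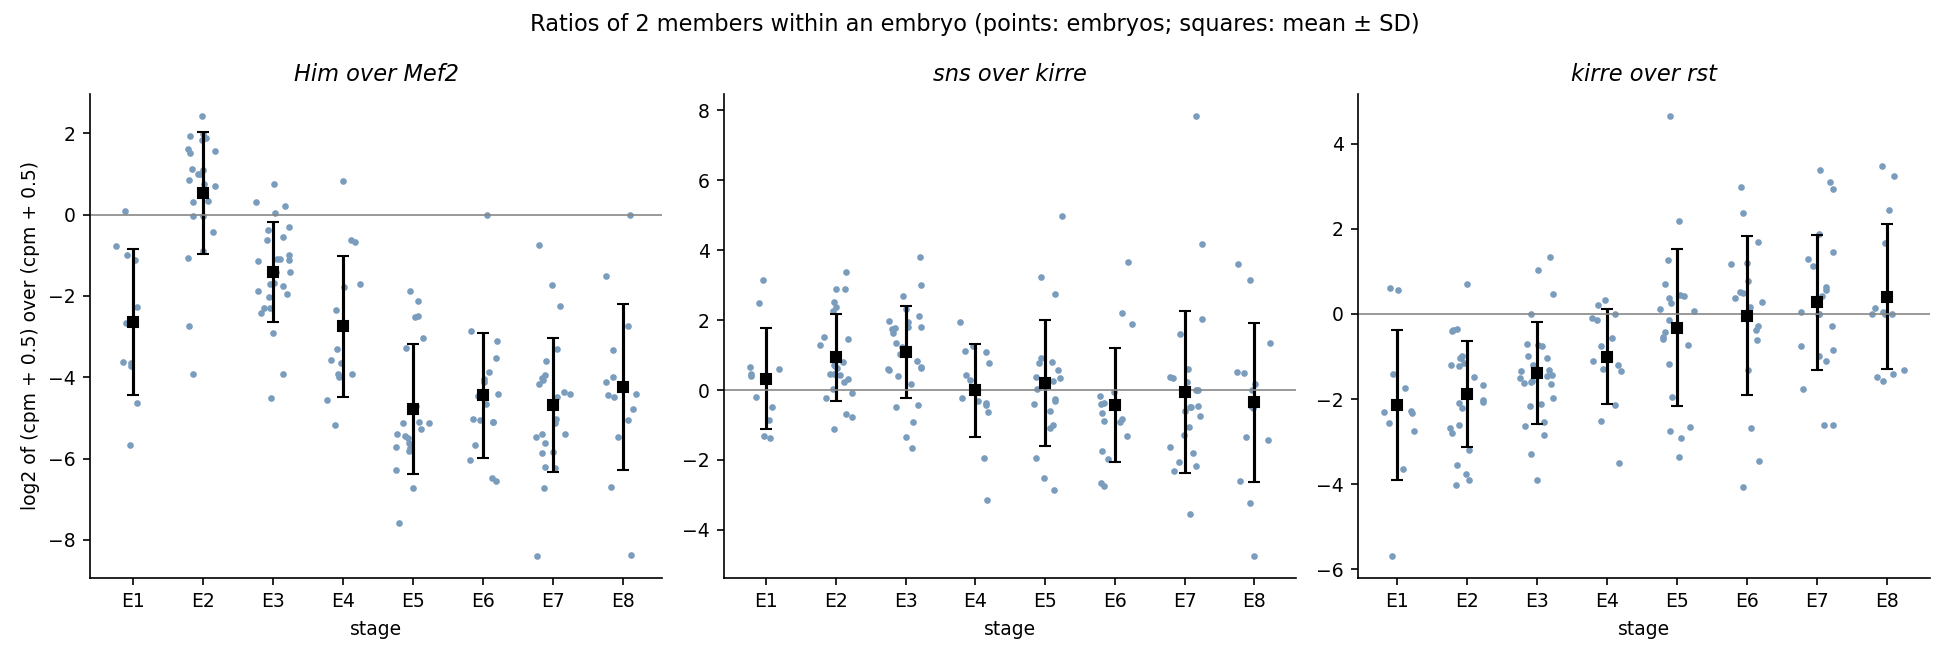
Log2 ratio of 2 members within an embryo (cpm plus 0.5 over cpm plus 0.5) by stage for Him over Mef2, sns over kirre and kirre over rst. Points are embryos and squares with bars are the mean ± SD. The median of Him over Mef2 is 0.93 at E2 and -5.27 at E5, and 17 of 24 embryos lie above 0 at E2.

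Members were also compared between embryos of the same stage, over 6 pairs at E2 and E3 with adjustment over 12 tests. At E3 (n = 27) kirre and rst had a Spearman rho of 0.70 (permutation p = 8e-05, adjusted p = 0.00096) and a Pearson r of 0.74 (permutation p = 2e-05, adjusted p = 0.00024), and r was 0.56 without the 2 embryos farthest from the median of kirre. For kirre and sns rho was 0.59 (permutation p = 0.00138, adjusted p = 0.00828), r was 0.68 (permutation p = 0.00016, adjusted p = 0.00096) and r without the 2 farthest was 0.45. For lmd and sns rho was 0.56 (permutation p = 0.00281, adjusted p = 0.0112), r was 0.64 (permutation p = 0.00071, adjusted p = 0.00276) and r without the 2 farthest was 0.57. For mbc and blow rho was 0.52 (permutation p = 0.00593, adjusted p = 0.0178), r was 0.60 (permutation p = 0.00115, adjusted p = 0.00276) and r without the 2 farthest was 0.48. With library means removed, kirre and rst had a rho of 0.48 (permutation adjusted p = 0.0453) and an r of 0.47, which was 0.21 without the 2 farthest embryos. kirre and sns then had an r of 0.54 (permutation adjusted p = 0.0104), which was 0.30 without the 2 farthest embryos, and a rho of 0.35 (permutation adjusted p = 0.118), so that this relation passed within libraries on Pearson's r and not on ranks. lmd and sns had a rho of 0.64 (permutation adjusted p = 0.00672) within libraries, but 0.45 in the 25 embryos nearest their own stage (permutation adjusted p = 0.0584). In those 25 embryos r was 0.45 for lmd and sns (permutation adjusted p = 0.0515). For mbc and blow r was then 0.46 (permutation adjusted p = 0.0515) and rho 0.53 (permutation adjusted p = 0.0347).

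lmd and rols at E3 had a Pearson r of 0.61 (permutation p = 0.00098, adjusted p = 0.00276) and a rho of 0.44 (permutation p = 0.0236, adjusted p = 0.0566), and r was 0.23 without the 2 farthest embryos, so this relation rests on those embryos. In the 25 embryos nearest their own stage r of lmd and rols was 0.44 and did not pass (permutation adjusted p = 0.0515). Mef2 and nau had a rho of 0.34 (permutation p = 0.0809, adjusted p = 0.139) and an r of 0.38 (permutation p = 0.0435, adjusted p = 0.0653). At E2 (n = 24) no pair passed on ranks, with permutation adjusted p of 0.0799 or more. The Pearson r of kirre with rst was 0.49 (permutation p = 0.0138, adjusted p = 0.0237) and that with sns was 0.50 (permutation p = 0.0132, adjusted p = 0.0237), and they were 0.20 and 0.34 without the 2 farthest embryos. In the 22 E2 embryos nearest their own stage r with rst was 0.57 (permutation adjusted p = 0.0205). That with sns was then 0.45 and did not pass (permutation adjusted p = 0.0518).

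**Figure D4:**
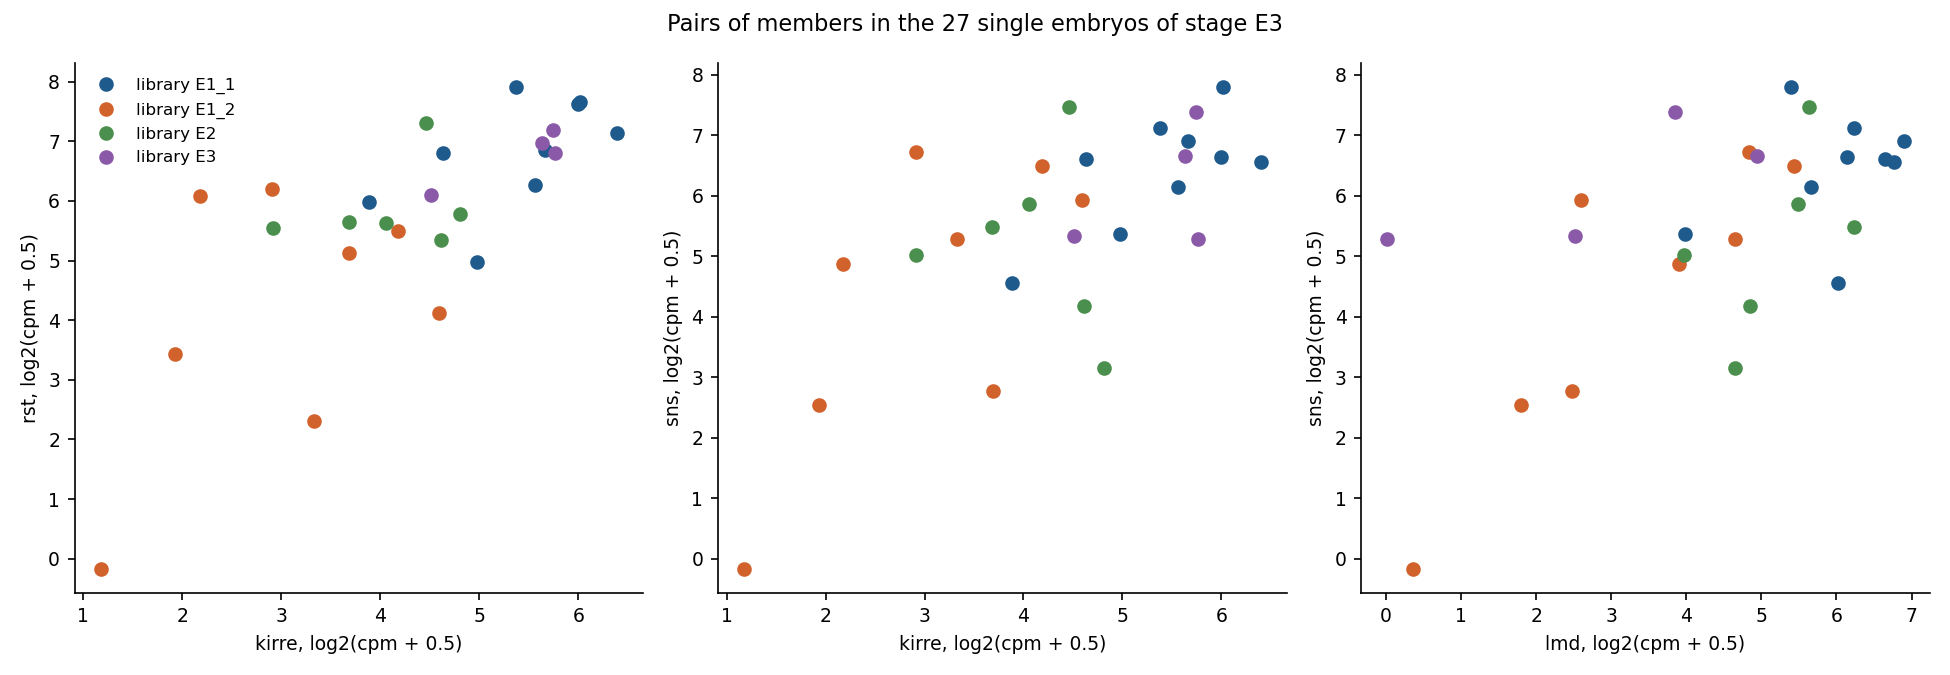
Levels of kirre and rst, kirre and sns, and lmd and sns in the 27 embryos of E3, as log2(cpm + 0.5), coloured by library. The Spearman rho is 0.70, 0.59 and 0.56, and in the first 2 panels the embryo lowest on both axes belongs to library E1_2. The profile of that embryo was nearest to another stage.

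The study's measure of inter-embryo variability, the adjusted SD, was computed for the members as a description. It is the SD of log2 expression in a stage over a predicted SD across all stages. That SD is predicted from the mean expression of the gene over all stages. The denominator of a gene is therefore the same at every stage, and its level within a stage is not corrected for. At E3 the median adjusted SD was 0.85 for the 9 members and 0.57 for all genes, and 8 members lay above the median of all genes. lmd had 1.05, sns 0.93, blow and rst 0.87 and Him 0.85, and mbc was the member below, at 0.50. At E2 the medians were 0.67 and 0.60, with 5 members above, and lmd had 1.30. At E7 the members' median of 0.78 stood below that of all genes, 0.97, and 2 members lay above it. The E3 gap was smaller in the embryos nearest their own stage, where the medians were 0.63 and 0.53 and 7 members lay above. At E2 they were then 0.54 and 0.49, with 7 members above. The E7 gap was also smaller in those embryos, with medians of 0.67 and 0.73 and 3 members above.

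**Figure D5:**
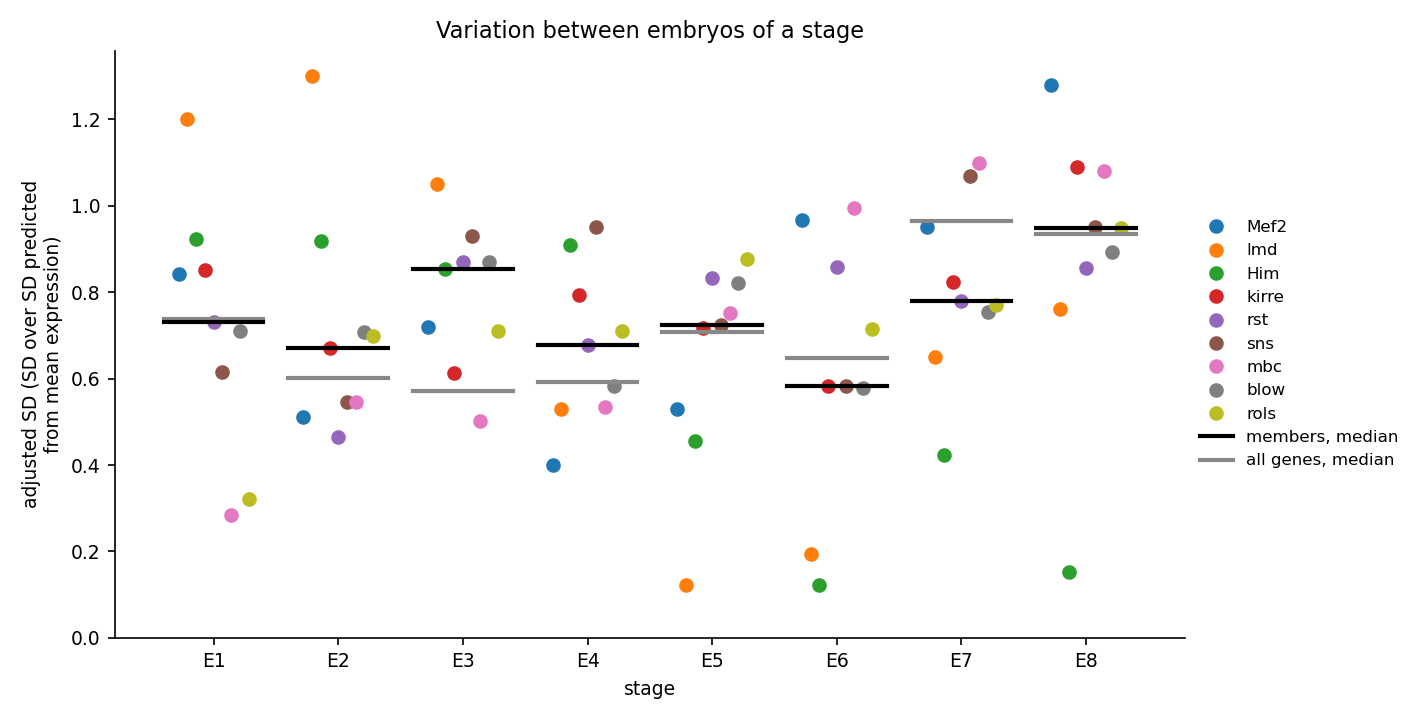
Adjusted SD of 9 members at each stage, with no unit. It is the SD between embryos over the SD across all stages predicted from the mean over all stages. Points are members, black bars their median and grey bars the median of all genes tested. At E3 the black bar is at 0.85 and the grey bar at 0.57, over all 27 embryos.

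The genes most alike to 3 members over the 153 embryos were found by the Pearson correlation of log2(cpm + 0.5), as a description over embryos that share stages and libraries. For lmd they were Obp99a (r = 0.80), cato (0.79), CG32182 (0.78), spdo (0.78) and Cpr5C (0.78). For Him they were Cpr5C (0.93), insb (0.91), Obp99a (0.91), CG4194 (0.91) and CG7763 (0.89), so that Cpr5C and Obp99a were among the 5 for both. For Mef2 they were zfh1 (0.70), Sema1b (0.69), Cont (0.68), gammaCOP (0.67) and Jarid2 (0.67). Between members the highest value was 0.73, for lmd and Him.

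Other genes of the muscle path were taken as lists. Of 12 tested genes of mesoderm specification, 4 rose and 2 fell from E2 to E3, against 11.3% of all genes called higher and 17.2% lower, with a median log2 fold change of 0.51. ths, an FGF ligand, rose by 1.66 ± 0.43 (edgeR adjusted p = 0.000993) and ttk, a zinc finger repressor, by 1.66 ± 0.30 (edgeR adjusted p = 3.71e-06). The NK homeobox genes bap and tin, of the visceral and dorsal mesoderm, fell by 2.92 ± 0.56 (edgeR adjusted p = 9.98e-06) and 2.12 ± 0.55 (edgeR adjusted p = 0.00118). Of 13 muscle identity transcription factors, which specify single founders, 7 rose and 2 fell in the same step, against the same background of 11.3% higher and 17.2% lower, with a median of 1.04. slou rose by 2.14 ± 0.61 (edgeR adjusted p = 0.0031), eve by 2.11 ± 0.61 (edgeR adjusted p = 0.00354) and lbl by 1.93 ± 0.54 (edgeR adjusted p = 0.0023), and Six4 fell by 1.69 ± 0.49 (edgeR adjusted p = 0.0035). Several of these factors are also used in neurons and epidermis. The 7 higher calls became 1 without library E1_1, where 7.7% of all genes were called higher.

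Of 12 cytoskeletal and adhesion partners of fusion, 3 rose and none fell from E2 to E3, against 11.3% and 17.2% of all genes, with a median log2 fold change of 0.52. Vrp1, the fly WIP protein that partners WASp at the actin focus, rose by 2.42 ± 0.31 (edgeR adjusted p = 1.56e-10). The GTPase gene Rac2 rose by 1.46 ± 0.31 (edgeR adjusted p = 5.58e-05) and SCAR, an activator of branched actin, by 1.35 ± 0.38 (edgeR adjusted p = 0.00244). The summed level of the 12 partners had a median of 801 cpm at E2 and 1370 cpm at E3. Of 3 tested tendon cell genes all 3 rose in this step. These were sr, the tendon transcription factor (log2 2.80 ± 0.51, edgeR adjusted p = 3.73e-06), Tsp, the fly thrombospondin (1.71 ± 0.32, edgeR adjusted p = 8.63e-06), and slow (1.67 ± 0.51, edgeR adjusted p = 0.00554).

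The 14 contractile genes, which encode sarcomere proteins, followed after the members. Their summed level had a median of 1020 cpm at E2, 2180 cpm at E3, 14200 cpm at E4 and 55300 cpm at E5. From E3 to E4, 13 rose and 1, Act87E, fell by 1.38 ± 0.37 (edgeR adjusted p = 0.00277), against 15.2% of all genes called higher and 6.85% lower, and from E4 to E5 all 14 rose, against 20.5%. From E3 to E4 the largest increases were those of Mhc, the muscle myosin heavy chain (3.93 ± 0.47, edgeR adjusted p = 1.57e-11), TpnC73F (3.51 ± 0.57, edgeR adjusted p = 3.02e-07), Mlc1 (3.45 ± 0.50, edgeR adjusted p = 1.49e-08) and bt (3.27 ± 0.50, edgeR adjusted p = 8.86e-08). From E4 to E5 Act87E rose by 3.81 ± 0.43 (edgeR adjusted p = 8.78e-13) and Prm by 2.75 ± 0.52 (edgeR adjusted p = 5.62e-06). In all embryos 10 of the 14 were called lower from E2 to E3, against 17.2% of all genes. In those nearest their own stage 0 were called lower and 2 higher, against 15.6% and 15% of all genes. The 2 E2 embryos nearest to E5 are in library E2, and without that library 0 were called lower, against 8.17%. The highest summed level of an E2 embryo was 50900 cpm.

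Genes of other cell types in the whole embryo moved too. Of 5 neuron markers, 3 rose from E3 to E4, against 15.2% of all genes. These were Syt1 (log2 2.89 ± 0.48, edgeR adjusted p = 6.67e-07), nSyb (2.65 ± 0.51, edgeR adjusted p = 2.11e-05) and brp (2.38 ± 0.46, edgeR adjusted p = 2.04e-05). From E2 to E3, 1 of the 5 was called higher, elav (1.86 ± 0.38, edgeR adjusted p = 3.59e-05), and 1 lower, Syt1 (-1.32 ± 0.45, edgeR adjusted p = 0.014), against 11.3% and 17.2% of all genes. In the embryos nearest their own stage Syt1 was not called in that step (-0.21, edgeR adjusted p = 0.671). Their summed level ran from 36.4 to 201 cpm at E2 (median 61.8) and from 24.4 to 906 cpm at E3 (median 239). Of 4 tested hemocyte markers, 2 were called higher from E4 to E5, against 20.5% of all genes, NimC1 (2.86 ± 0.60, edgeR adjusted p = 5.22e-05) and Hml (1.85 ± 0.60, edgeR adjusted p = 0.00996). The call of Hml was lost in the embryos nearest their own stage (-0.07, edgeR adjusted p = 0.938), where Hml was called higher from E5 to E6 (4.60, edgeR adjusted p = 8.77e-13) and srp, a GATA factor of hemocytes, was called lower from E4 to E5 (-1.17, edgeR adjusted p = 0.0374). The summed level of the 5 in the table ran from 26.6 to 129 cpm at E2 and from 22.7 to 147 cpm at E3. Of the nephrocyte markers, where sns also acts, 1 was tested. Cubn was not called from E2 to E3 (0.45 ± 0.53, edgeR adjusted p = 0.521) and was called higher from E4 to E5 (1.69 ± 0.68, edgeR adjusted p = 0.0462), a call that was lost in the embryos nearest their own stage (1.53, edgeR adjusted p = 0.0816). The summed level of 3 of these markers had a median of 3.21 cpm at E2 and 5.73 cpm at E3. The part of these cell types in the levels of kirre, rst, sns and mbc was not tested.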

How the data were processed

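Transcripts of 288 single embryos were profiled by BRB-seq. The authors demultiplexed and trimmed the reads with BRB-seqTools, aligned them with STAR to BDGP6, counted them on genes of Ensembl release 91 with HTSeq and deposited raw counts without normalization. Tool versions are not given in the sources used here. Identifiers were matched to Ensembl release 115, and 138 of them, unmatched, stayed out. The members and lists were chosen with earlier results of these data known.

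Samples with at least 300000 counts on protein-coding genes and 4500 genes above 0 were kept (250), and the small cluster of the scaling (97) was left out at the lines drawn by the study. Both numbers differ from those of the study, which gives no list of the samples in the cluster. The study proposes that the cluster holds unfertilized eggs. Membership of the cluster was the same with the members removed. Genes with a mean cpm above 1 were fitted in edgeR 4.0.16 (TMM, stage plus library, R 4.3.3) and called at an adjusted p below 0.05 and an absolute log2 fold change above 1. The adjusted SD used voom with quantile normalization (limma 3.58.1) and ComBat (sva 3.50.0). DESeq2 1.42.0 was an alternative. Ratios and correlations used 100000 resamples in SciPy 1.17.1. The fit was tested on simulated data. Depth differs between embryos. Counts of 3 or fewer were treated as background only when detection in the small cluster was tallied, and no such limit was applied elsewhere. The named genes were all members, the 5 genes most alike to lmd, Mef2 and Him, and up to 4 called genes of each list in its step with most calls, Act87E, elav and Syt1 from E2 to E3 being named beyond that rule. Dl, hbs, Arf51F, Alien and mec2 were not analysed here.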

Additional observations from a re-analysis of the deposited data

Results flagged for a closer look

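The samples of the small cluster, unfertilized eggs as the study proposes, entered no comparison except where the cluster is said to be included. Each member was nevertheless detected in some of them. The number of the 97 samples with more than 3 counts, which is the limit that a count of 0 allows, was 79 for Mef2, with a highest level of 112 cpm at E6, and 60 for mbc, with 38.7 cpm at E7. It was 51 for Him (22.5 cpm at E8), 49 for sns (5.17 cpm at E8) and 47 for rst (25.7 cpm at E8). For rols it was 33 (4.74 cpm at E1), for kirre 31 (17.1 cpm at E8), for blow 25 (5.71 cpm at E4), for lmd 22 (9.91 cpm at E7) and for nau 1 (3.45 cpm at E8). The highest levels are those of single samples. Over the 72 samples of the cluster at E2 to E8 the median was 5.06 cpm for Mef2, 1.76 for mbc and 1.24 for rst. It was 1.21 cpm for Him and 1.02 for sns, and below 1 cpm for every other member. The number over the limit also depends on depth, which ran from 323298 to 22026248 counts in the cluster. These samples have no control group of their own, and counting error alone is covered by the limit.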

How the results depend on the processing

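No called step of a member changed sign. The step of sns from E7 to E8, which was not called, was -0.53 in all embryos and 0.68 in those nearest their own stage. Members called higher from E1 to E2 numbered 2 with DESeq2 (2.68% of all genes) and 2 without the library term (1.59%), 6 with the small cluster included (9.32%), 4 in embryos nearest their own stage (4.91%) and 3 without library E3 (3.18%). Members called lower numbered 1 from E5 to E6 (6.55% of all genes) and members called higher 1 from E7 to E8 (3.73%) in embryos nearest their own stage, and 1 was called lower from E6 to E7 without library E3 (6.05%). The highest stage was called above the next for 1 member with the small cluster and for 1 in embryos nearest their own stage. It was sns both times, at E3 over E4, where 3.33% and 6.67% of all genes were called lower. Him over Mef2 from E3 to E4 was -1.29 with a pseudocount of 0.1 cpm and -0.74 with the small cluster, and sns over kirre from E3 to E4 was -1.27 in embryos nearest their own stage. At E3 the rho of lmd and sns was 0.45 in embryos nearest their own stage and that of kirre and sns 0.35 with library means removed. The members' median adjusted SD at E3 was 0.629 in embryos nearest their own stage, an alternative chosen after seeing the data.

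For the lists, brackets give the share of all genes called in that direction, step and setting. From E2 to E3, fusion partners called higher were 5 with library size alone (20.7%) and 5 with DESeq2 (17.7%). Identity factors called higher were 4 with the small cluster (7.7%) and 1 without library E1_1 (7.7%). Those called lower were 1 with library size alone (9.63%) and 1 without library E1_2 (14.8%). Mesoderm genes called higher were 2 without library E1_1 (7.7%). Contractile genes called lower were 6 with the small cluster (8.71%) and 0 without library E2 (8.17%). In embryos nearest their own stage 0 were lower (15.6%) and 2 higher (15%). From E3 to E4, 0 contractile genes were lower without library E2 (4.12%) and 1 neuron marker was lower without library E1_2 (5.18%). From E4 to E5, 1 hemocyte marker was lower with library size alone (15.3%). In embryos nearest their own stage 1 was higher (15.8%) and 1 lower (8.81%). In the same step 1 was higher after thinning to 300000 counts (18.9%), 1 without library E1_1 (16%) and 1 without library E2 (16.6%). For single members and steps, 859 values kept their side of the threshold, 17 gained a call and 6 lost one. The 859 include values called neither in the main fit nor in the alternative. They also include 63 from finding the cluster without the members, which gave the same embryos, so these could not differ. The causes of the changes were not tested. No paired analysis was possible because the labels give library and well and no shared replicate numbers. Plates were filled by RNA concentration, and its part in the results was not tested. Levels near 1 cpm, as for nau at all stages and lmd after E4, rest on few counts in shallow embryos.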
